A study of Mus musculus with 2 samples.

Results

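The genes described here encode the ATP-binding cassette (ABC) transporters of the subfamilies Abca, Abcb, Abcc, Abcd and Abcg, the organic anion transporting polypeptides (Slco), the organic cation and anion transporters (Slc22a) and the bile acid transporter family (Slc10a). A gene was a member where its mouse symbol began with the name of 1 of these 8 families. Of 95 such symbols in the RefSeq gene table, 91 were found on the arrays by accession, among 20658 genes with a symbol. These 91 genes had 115 probes on 124 spots. Abca16, Slc10a4l, Slc22a30 and Slco6b1 were not matched and were not analysed here.

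RNA of the prefrontal cortex (PFC) was measured in a C group and a CMS group, each as 1 pool on 1 one-color Agilent array. Mice of both groups were male C57Bl/6 N sea mice, 9 to 10 weeks old at the start. The C group received ordinary care, and the CMS group was housed singly and exposed to chronic mild stress for 4 weeks, a procedure of changing mild stressors used as a model of depression, so single housing and the stressors cannot be told apart. The design text gives RNA of 7 mice in each pool, while the methods state another number for the molecular work. Since each group had 1 array, there are no replicates, no test was made, and every difference below compares 2 pools. The error given with a signal (±) is the scanner software's estimate for that spot, which covers the array and not the spread between mice. Signals are intensities in arbitrary units after scaling to an array mean of 2500. On both arrays 65.2% to 65.9% of the spots were well above background. Markers of cortical neurons were at like levels in both pools, with a median log2 ratio of -0.01 over 8 genes, all of them well above background.

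ABC transporters use ATP to move lipids, sterols, bile salts, drugs and conjugates across membranes, mostly out of cells or into organelles. Slco and Slc22a proteins carry organic anions and cations, mostly into cells, and Slc10a proteins carry bile acids and steroid sulfates together with sodium. In the liver, uptake transporters on the blood side and exporters on the canalicular side together move bile acids and drugs from blood to bile. In the brain, other members of the same families guard the capillary endothelium and the choroid plexus, and Abca and Abcg members move cholesterol and phospholipids between glia and neurons.

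Of the 91 genes, 60 were well above background in both pools, 4 in the CMS pool alone, 2 in the C pool alone and 25 in neither. A ratio of CMS over C could be given for 66 genes. The CMS pool was above the C pool by more than 2-fold for 5 of them, which is 7.58%, beside 2.25% of all 16270 genes with a ratio. None was below 0.5 times the C pool, beside 0.43% of all genes with a ratio. Among the 5 were Abcb11, Slco1b2, Abcg5 and Slc22a7, which in the liver serve bile salt export, uptake of bile acids and other organic anions, and sterol export. With another background correction (normexp, offset 50), Abcb11 and Slco1b2 remained past 2-fold and the other 3 did not, with log2 ratios of 0.85 for Abcg5 and 0.81 for Slc22a7. The median log2 ratio of the 66 genes was -0.06, beside -0.04 over all genes with a ratio.

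Promoter sequences of Abcb11, Slco1b2 and Abcg5 were in the RefSeq promoter table and are shown because each of these genes was more than 2-fold higher. Shared control of these genes was not tested. They are given 5′ to 3′ in coordinates of GRCm38.p6, and capitals mark matches to 3 short motifs described after them. The Abcb11 sequence is chr2:69342617-69342866 on the minus strand and the Slco1b2 sequence is chr6:141629268-141629517 on the plus strand, each the 250 bases before the annotated start. Abcg5 and Abcg8 start head to head, and their sequence, chr17:84683012-84683120 on the plus strand, holds the 109 bases between the start of Abcg5 and the nearer of the annotated starts of Abcg8.
Abcb11: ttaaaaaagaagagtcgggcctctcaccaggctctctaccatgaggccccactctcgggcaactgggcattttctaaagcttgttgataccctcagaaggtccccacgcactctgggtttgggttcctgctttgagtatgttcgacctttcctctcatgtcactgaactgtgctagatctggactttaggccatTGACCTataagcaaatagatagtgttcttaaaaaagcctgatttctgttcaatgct
Slco1b2: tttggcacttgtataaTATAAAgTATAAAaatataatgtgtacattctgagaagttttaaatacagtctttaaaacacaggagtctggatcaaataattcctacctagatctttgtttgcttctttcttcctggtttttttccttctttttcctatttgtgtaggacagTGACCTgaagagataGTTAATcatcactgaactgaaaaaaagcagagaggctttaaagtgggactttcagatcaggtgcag
Abcg5-Abcg8: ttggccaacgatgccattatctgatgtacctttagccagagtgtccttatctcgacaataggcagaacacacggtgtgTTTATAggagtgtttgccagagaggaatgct
The motifs marked were the nuclear receptor half-site AGGTCA, the letters GTTAAT and the TATA box letters TATAAA, each searched on both strands and chosen after the values were seen. The table holds 32851 promoters of 250 bases before and 50 bases after a start, and only the 250 bases before the start were searched. In these bases AGGTCA was in 14% of the promoters, GTTAAT in 6.43% and TATAAA in 12.4%. AGGTCA began 56 bases before the start of Abcb11 and 81 bases before that of Slco1b2. GTTAAT lay 66 bases before the start of Slco1b2. A TATAAA match lay 84 bases before the start of Abcg5 and 31 bases before that of Abcg8. Of the transporter genes, 71 had promoters in the table, 83 in all, and AGGTCA was in 13 of these 83 promoters, TATAAA in 12 and GTTAAT in 5. The longer HNF4 motif CAAAGTCCA was in 0.384% of all promoters and in none of the 83 transporter promoters. A match is a description of letters in a window and not a site in use.

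The canalicular exporters pump bile constituents from hepatocytes into bile. Abcb11, the bile salt export pump, went from a signal of 20.1 ± 4.31 in the C pool to 281 ± 28.4 in the CMS pool. This was 14.0-fold higher, a log2 ratio of 3.81 ± 0.34, and the highest among the 66 transporter genes with a ratio. The C signal lay just above the lowest signal that counted as well above background on that array, 17.8, so the fold rests on a dim spot. Abcg5, which with Abcg8 forms the heterodimer that exports sterols into bile and gut, went from 5.13 ± 3.89 in the C pool, which was not well above background, to 66.5 ± 7.64 in the CMS pool. It was at least 3.74-fold higher. Its partner Abcg8 was not well above background in either pool, at 4.75 and 4.59. Abcc2, an exporter of bilirubin and drug conjugates, went from 4.53, not well above background, to 28.8 ± 5.41, at least 1.62-fold higher. Abcb4, the phosphatidylcholine flippase of the canalicular membrane, differed by less than the error estimate, with 902 ± 90.3 in the C pool beside 933 ± 93.4 in the CMS pool. Of the 5 canalicular exporters, 2 were more than 2-fold higher, and the median log2 ratio was 1.30 over the 4 with a ratio. This median falls between Abcc2 and Abcg5, whose ratios are bounds, explained next, and could only lie above 0.

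A bound was set in the same way for every gene dim in 1 pool. Its dim signal was replaced by the lowest signal of the same array that still counted as well above background, 17.8 for C or 17.6 for CMS, unless its own was higher, and the fold is then written as at least that value. The brighter signal entered as measured, without its error estimate, so "at least" does not cover that error. Genes dim in both pools were given no ratio.

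The liver uptake transporters take up bile acids and organic ions from blood. Slco1b2, the main hepatic organic anion transporting polypeptide of the mouse, went from a signal of 70.6 ± 8.39 to 511 ± 51.3. It was 7.24-fold higher, a log2 ratio of 2.86 ± 0.22. Slc22a7, the organic anion transporter OAT2, went from 20.4 ± 4.25 to 70.5 ± 7.92, 3.45-fold higher. Both were well above background in both pools, but the C signal of Slc22a7 lay just above the lowest that counted, 17.8. Its fold, like that of Abcb11, thus rests on a dim spot. Slco1a1, another hepatic organic anion carrier, was below the limit, with 26.8 ± 4.81 beside 46.2 ± 6.08, a log2 ratio of 0.78 ± 0.32. Of the 5 uptake transporters, 3 were more than 2-fold higher.

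**Figure D1:**
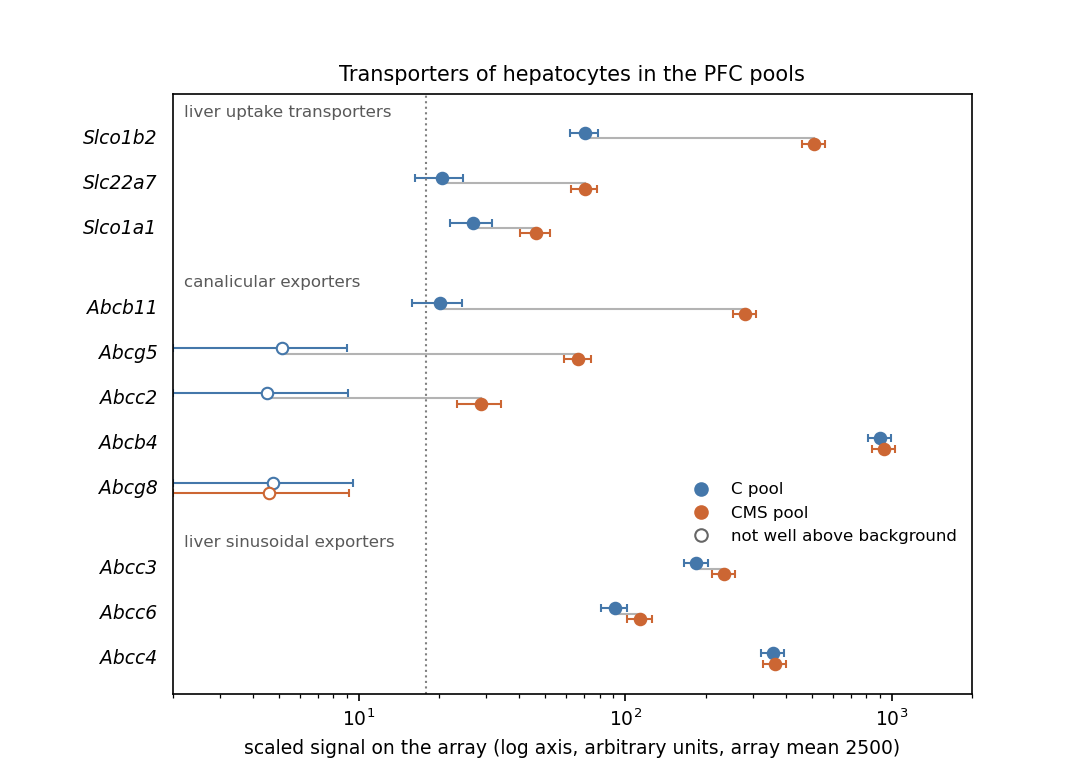
Scaled signal of transporters of liver in the C pool (blue) and the CMS pool (orange), on a log axis in arbitrary units, with bars for the scanner software's error estimate of each spot. Open points are not well above background, the dotted line is the C array's lowest signal that counted as well above background, and bars that reach the left edge go on beyond it. Slco1b2, Slc22a7, Abcb11 and Abcg5 lie more than 2-fold higher in the CMS pool, while the points of Abcb4, Abcg8 and Abcc4 overlap. Slc10a1 is left out because its brightest probe lies far beyond the axis.

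Slc10a1, the sodium-taurocholate cotransporting polypeptide and the main bile acid importer of hepatocytes, was measured by 2 probes that disagreed. The brighter probe, which the rule of the brightest probe takes, went from 501222 to 534088, a log2 ratio of 0.09 ± 0.20. On both arrays it was the second brightest probe of all, behind 1 annotated to Kctd14. The other probe went from 6.32 ± 4.59, not well above background, to 36.1 ± 5.71, at least 2.03-fold higher. Which of the probes reads Slc10a1 RNA was not tested. With the dim probe in place of the bright one, 6 transporter genes would be more than 2-fold higher, Slc10a1 by this bound, which leaves out the error.

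The sinusoidal exporters return conjugates and bile acids from hepatocytes to blood. Abcc3 went from 185 ± 19.1 to 235 ± 24.0 and Abcc6 from 91.4 ± 10.2 to 114 ± 12.1, log2 ratios of 0.35 ± 0.21 and 0.32 ± 0.22. Abcc4 was at 359 and 364. None of the 3 was past 2-fold. Joined, the 3 liver lists hold 13 genes, of which 12 had a ratio and 5 were more than 2-fold higher. All 12 log2 ratios were above 0, with a median of 0.74. Among the 12, 2 were bounds of genes dim in the C pool, which could only lie above 0. Slc10a1 by its brighter probe, Abcb4 and Abcc4 were above 0 by less than their error estimates. The lists were chosen with earlier results of these data known, so the contrast with the other genes is a description. The other 78 transporter genes gave 54 ratios, of which none was past 2-fold, 15 were above 0 and 39 below, with a median of -0.09. Over all genes with a ratio, 6086 were above 0 and 10184 below.

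Within families the members differed. The Abca family had 11 ratios among 15 genes and a median log2 ratio of -0.11, Abcb 9 among 10 and -0.03, Abcc 10 among 10 and -0.03, and Abcd 4 among 4 and 0.08. The Abcg family had 4 ratios among 6 genes and a median of -0.07, Slco 9 among 14 and -0.15, Slc22a 15 among 25 and -0.06, and Slc10a 4 among 7 and 0.02. Abcb, Abcg and Slco each held 1 gene more than 2-fold higher and Slc22a held 2. The medians thus lay near that of all genes in each family while single members stood apart.

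**Figure D2:**
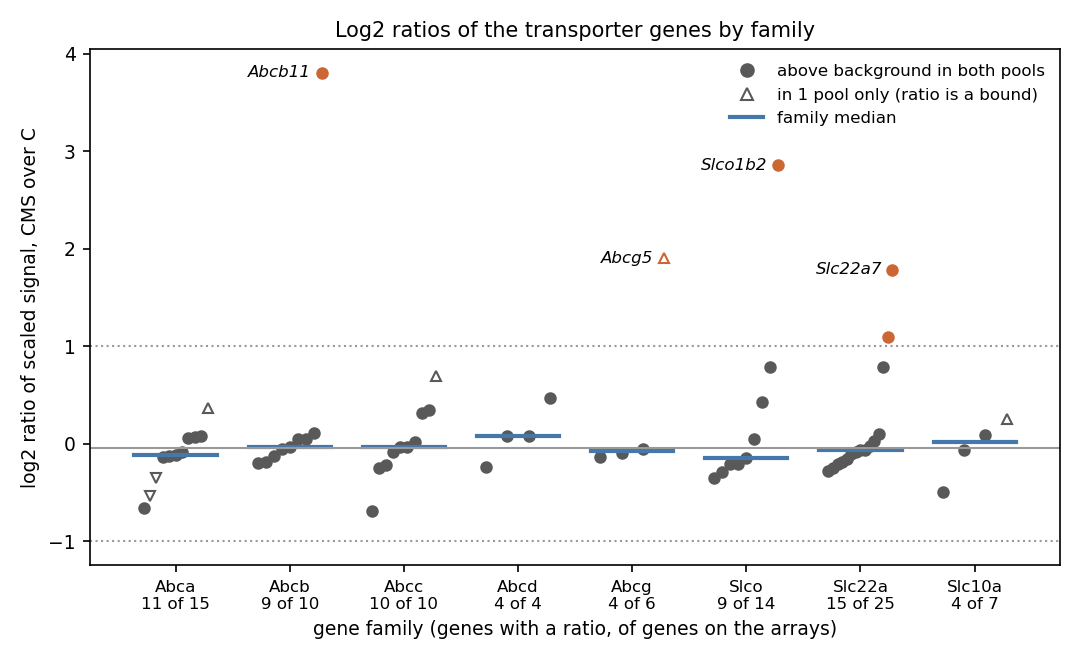
Log2 ratio of scaled signal, CMS over C, for each of the 66 transporter genes with a ratio, by family, with the number of genes with a ratio of those on the arrays under each name. Circles are genes above background in both pools, triangles are bounds pointing the way the ratio may extend, blue bars are family medians, the grey line is the median of all genes and dotted lines mark 2-fold. The 5 orange points lie above 1 on the log2 scale, none lies below -1, and the family medians lie between -0.15 and 0.08.

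All 5 genes past 2-fold had low signals in the C pool. Of the transporter genes with a ratio, 19 had a C signal below 100, and 5 of these, 26.3%, were more than 2-fold higher, beside 7.97% of the 3327 genes of the whole set with a C signal below 100. The other 47 transporter genes had a C signal of 100 or more, and none of them was more than 2-fold higher, beside 0.78% of the whole set. Their log2 ratios ran from -0.66 for Abca9 to 0.79 for Slc22a18. Genes that are dim in the C pool can enter the count through the CMS pool alone, as Abcg5 did.

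A second count used the scanner's error in place of the 2-fold limit. Among the 60 transporter genes above background in both pools, 6 were higher by more than 2 error estimates, among them Abcb11, Slco1b2, Slc22a7, Slc22a18 and Slco1a1, beside 2.86% of all genes above background in both pools. Slc22a18, an organic cation transporter-like gene, went from 130 ± 13.6 to 225 ± 22.8, a log2 ratio of 0.79 ± 0.21. Abca9 was the 1 transporter gene lower by more than 2 error estimates, beside 1.76% of all genes, going from 130 ± 13.8 to 82.2 ± 9.50, a log2 ratio of -0.66 ± 0.23. Just outside the 2-fold limit were Slc22a18 at 0.79, Slco1a1 at 0.78 and Abcc2 at a bound of 0.69 on the log2 scale. The lowest ratio of all was that of Abcc12, a log2 ratio of -0.69 ± 0.37 from signals of 36.9 and 22.9, within 2 error estimates.

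**Figure D3:**
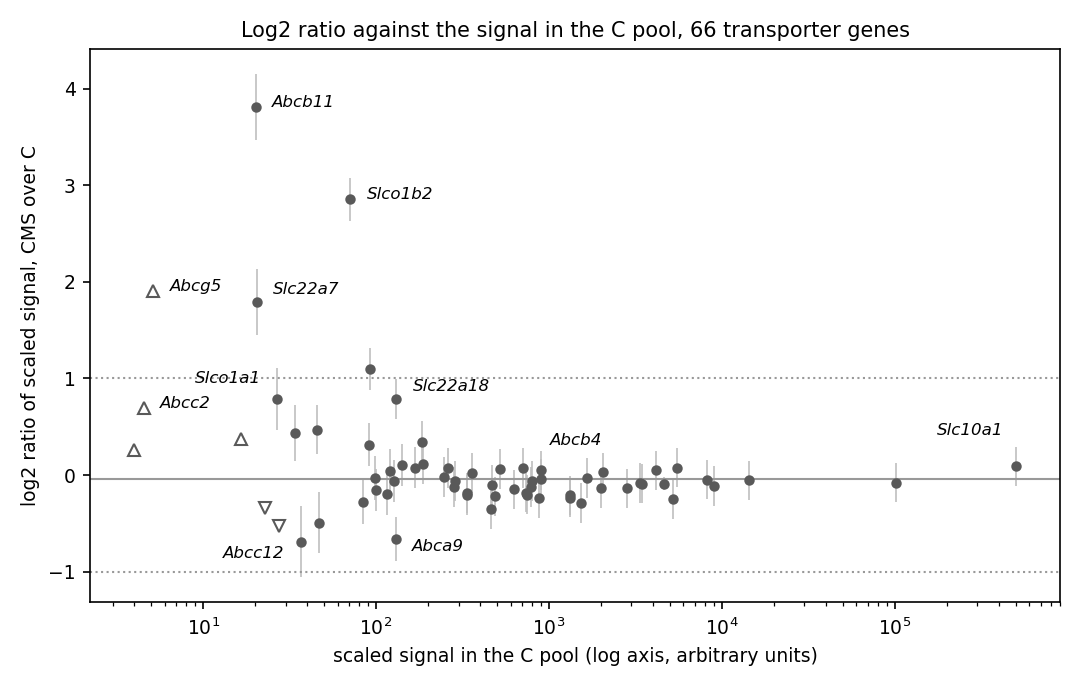
Log2 ratio of scaled signal, CMS over C, against the scaled signal in the C pool on a log axis in arbitrary units, for the 66 transporter genes with a ratio. Bars are the scanner software's error estimates, triangles are bounds, the grey line is the median of all genes and dotted lines mark 2-fold. The 5 genes above 1 lie to the left, at C signals below 100, and the 47 genes at 100 or more lie between -0.66 and 0.79.

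The other Slco1 genes near Slco1b2 on the chromosome were within 2-fold or at background. On chromosome 6 the RefSeq table gives the order Slco1c1, Slco1b2, Slco1a4, Slco1a1, Slco1a6 and Slco1a5. The protein-coding genes Gm5724 and Gm6614 also lie within this stretch, and their values are not given here. Slco1b2 had a log2 ratio of 2.86, whereas Slco1c1, a thyroxine carrier of brain capillaries and choroid plexus, had -0.21 ± 0.20 and Slco1a4, an organic anion carrier of brain capillaries, -0.15 ± 0.20. Slco1a1 was higher with 0.78 ± 0.32, below the 2-fold limit and beyond 2 error estimates. Slco1a6 and Slco1a5 were not well above background in either pool. Abcg5 and Abcg8, neighbors on chromosome 17, were described above.

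Transporters of the brain barriers stayed within 0.21 of 0 on the log2 scale. All 8 listed genes were above background in both pools, none was past 2-fold, 7 were below 0 and 1 above, and the median log2 ratio was -0.16. Abcb1a, the P-glycoprotein drug pump of brain capillaries, had 738 ± 73.9 in the C pool beside 651 ± 65.3 in the CMS pool. Abcg2, the breast cancer resistance protein, had 2009 ± 201 and 1829 ± 183. Both differences were smaller than the error estimate of the log2 ratio, which was 0.20 for each. Slco1a4 was at 625 and 564, Slco2b1 at 743 and 646, and Slc22a8, the organic anion transporter OAT3 of choroid plexus and capillaries, at 337 and 293. Abcc5, an exporter of cyclic nucleotides and glutamate conjugates, had 10 spots of its brightest probe, giving 4655 ± 147 and 4381 ± 139. Its log2 ratio was -0.09 ± 0.06, with a smaller error estimate because the scanner's errors were averaged over these spots as if independent. Brain endothelium markers had a median log2 ratio of -0.05 over 9 genes, with summed signals of 21760 and 21049.

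Lipid and sterol transporters that neurons and glia use were also alike in the pools. Over Abca1, Abca2, Abca3, Abca5, Abca7, Abcg1 and Abcg4 the log2 ratios ran from -0.14 for Abca2 to 0.07 for Abca5, with a median of -0.08. Abca1, which loads cholesterol onto apolipoproteins, went from 520 ± 52.2 to 544 ± 54.5. Abcg1 and Abcg4, which pass cholesterol on to lipoprotein particles, had 3453 and 3244, and 8237 and 7965, in the C and CMS pools. None of the 7 differences exceeded the error estimate of its log2 ratio.

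In each family the members with the brightest probes were also within 2-fold. For Slc10a1 this holds for the brighter probe only, as its other probe was at least 2.03-fold higher. Abca3, which loads lipid into lamellar bodies, had a log2 ratio of -0.11 ± 0.20 and Abca7, a phospholipid transporter linked to Alzheimer disease, -0.08 ± 0.20. Abcb9, a lysosomal peptide transporter, went from 14380 to 13842, and Abcd4, which moves cobalamin out of lysosomes, from 1330 to 1132. Slc22a17, a receptor for lipocalin-2, went from 102278 to 96817, and Slc22a23, an orphan member of the family, from 2065 to 2107. Slco3a1, an organic anion carrier of neurons and glia, went from 1536 to 1256 by its brighter probe, and Slc10a3 from 286 to 274. Slco3a1 and Abcd4 had log2 ratios of -0.29 ± 0.20 and -0.23 ± 0.20. Each of these, like Abcc8, Slco1c1 and Abcc5 among the brightest members, differed by more than the error estimate and by less than 2 of them.

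The organelle and channel members were measured well and none was past 2-fold. The 4 mitochondrial half-transporters had a median log2 ratio of 0.01, and Abcb6, Abcb8 and Abcb10 among them had -0.12, 0.05 and -0.03. The 3 peroxisomal half-transporters, which import fatty acids, had a median of 0.08. Among them Abcd2 went from 168 to 177 and Abcd3 from 5496 to 5798. Abcc8 and Abcc9 encode the sulfonylurea receptors of ATP-sensitive potassium channels, and Abcc8 went from 5208 ± 521 to 4390 ± 439, a log2 ratio of -0.25 ± 0.20, while Abcc9 had -0.03 ± 0.23. The carnitine transporters Slc22a4, Slc22a5 and Slc22a21 had ratios from -0.16 to -0.02, and Slc22a16 was at background.

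Transporters best known from the kidney tubule did not stand apart as a group. Of 7 listed genes 6 had a ratio, none was past 2-fold, and the median log2 ratio was -0.13, from -0.28 for Slc22a2 to 0.43 ± 0.29 for Slco4c1. Slc22a6, the organic anion transporter OAT1, went from 878 ± 87.9 to 742 ± 74.4. Slc22a12, the urate transporter, was at background in both. The ileal bile acid transporter Slc10a2 went from 4.01, not well above background, to 21.2 ± 4.46, at least 1.19-fold higher. This bound leaves out the error of the CMS signal, which reaches below the limit of 17.8.

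Several probes of a gene gave a check within the arrays. Over 1 probe with a ratio was present for 13 transporter genes, and for 8 of them the log2 ratios of the probes differed by less than 0.3. Besides Slc10a1, the probes differed by more for genes that included Slc22a28, with -0.10 and a bound of 0.56, Slc22a15, with 0.10 and a bound of 0.46, and Slco3a1, with -0.29 and 0.03. Each of the 5 genes past 2-fold had 1 probe on 1 spot, so no second probe stood beside them.

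Genes that work with these transporters were read from fixed lists. Beside their counts and those of the marker lists below, 2.25% of all genes with a ratio were more than 2-fold higher. Among genes with a C signal below 100 the share was 7.97%. Of 13 genes of bile acid synthesis and conjugation 9 had a ratio and 3 were more than 2-fold higher. These were Acox2, a peroxisomal oxidase of the bile acid side chain, with 32.6 and 222 and a log2 ratio of 2.76 ± 0.28, Slc27a5, the bile acid CoA ligase, with 282 and 1465 and a log2 ratio of 2.38 ± 0.21, and Cyp27a1, the sterol 27-hydroxylase, at least 2.05-fold higher. The call of Cyp27a1 ended under quantile normalization, with a log2 ratio of 0.998, and under normexp correction, with 0.31. Under normexp correction Acox2 had 1.59 and Slc27a5 2.17. Cyp7a1, the rate-limiting enzyme of the classic pathway, Cyp8b1, Akr1d1 and Baat were not well above background in either pool. Cyp46a1, the cholesterol 24-hydroxylase of neurons, was at 1041 and 1097 in the C and CMS pools.

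Of 11 genes of bile acid sensing and other bile acid transport, 5 had a ratio and 1 was past 2-fold. This was Nr1h4, the bile acid receptor FXR, which was too dim for a level in the C pool and was higher in the CMS pool by at least 3.31-fold, a call that ended under normexp correction with a log2 ratio of 0.62. Its target Nr0b2 and the exporter subunit Slc51a were at background in both pools. Among 11 transcription factors that act on transporter genes, 9 had a ratio and 1 was past 2-fold, Hnf4a, a nuclear receptor of hepatocytes, going from 45.1 to 529, a log2 ratio of 3.55 ± 0.24. Foxa2 was at background in both pools. Of 10 partners of sterol efflux, 9 had a ratio and Apoa1, the main apolipoprotein of HDL and an acceptor for Abca1, was the 1 past 2-fold, with 48.1 and 507 and a log2 ratio of 3.40 ± 0.08, whereas Apoe, the main apolipoprotein of brain, had 0.05 ± 0.07. Under normexp correction Hnf4a had 2.52 and Apoa1 2.36, both still past 2-fold.

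Markers of hepatocytes differed in the same direction as the liver transporters. Of 10 markers, 9 were past 2-fold in the CMS pool, the exception being Tat at a log2 ratio of 0.74 ± 0.20, their median log2 ratio was 2.91, and their summed signal went from 5093 to 43647, 8.57 times higher. Of the cholangiocyte markers, of the bile duct cells, Krt19, Krt7 and Epcam were at background in both pools. Sox9 and Cftr had log2 ratios of 0.04 and -0.16, from C signals of 701 and 727. At such C signals these genes could not show a small addition. Of 8 kidney proximal tubule markers none was past 2-fold, with summed signals of 598 and 597 and Lrp2, Kap and Slc7a13 at background in both pools. Of 6 intestinal markers Fabp2, which liver holds too, was higher with a log2 ratio of 1.51 ± 0.23, Sis was at least 2.27-fold lower, and Alpi and Cdx2 were at background. Of 8 choroid plexus markers Ttr, also a plasma protein made by liver, was the 1 past 2-fold, with a log2 ratio of 3.38 ± 0.20, and the median was 0.08. Markers of resident brain cells had median log2 ratios of -0.03 for astrocytes, -0.15 for oligodendrocytes and 0.05 for microglia, and the 2 erythroid genes with a ratio had a median of 0.45. The part of cells or RNA of other tissues in the transporter differences was not tested, and in pooled tissue fewer cells of a type and less RNA per cell cannot be told apart.

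**Figure D4:**
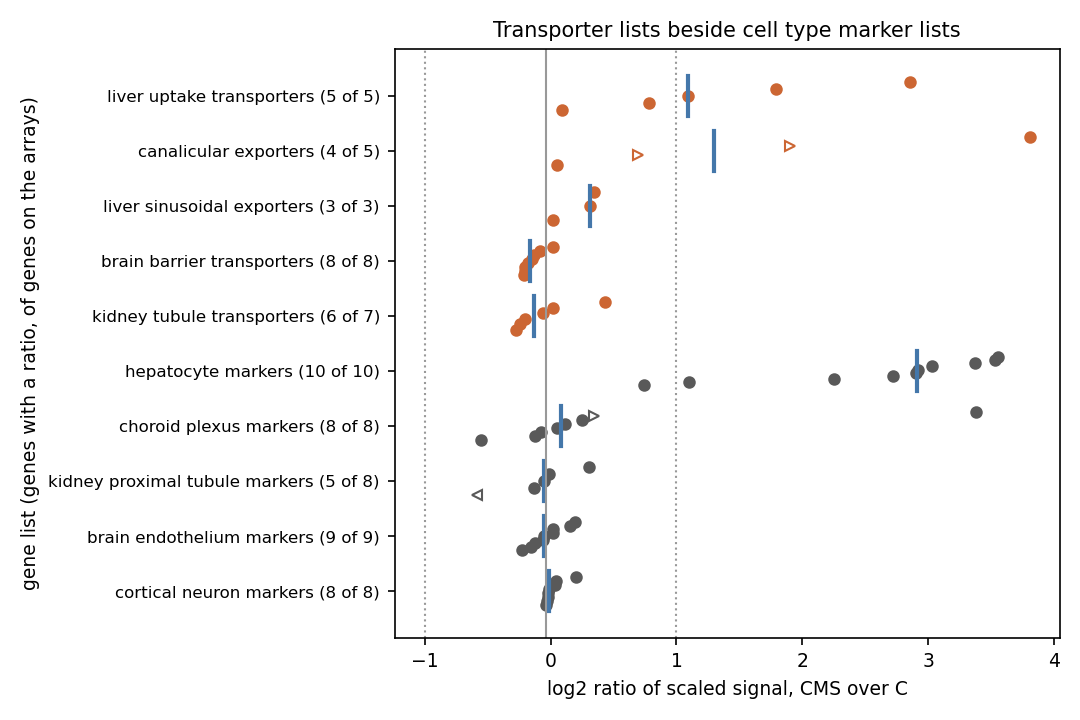
Log2 ratio of scaled signal, CMS over C, for the genes of 5 transporter lists (orange) and 5 cell type marker lists (grey), with the number of genes with a ratio of those on the arrays beside each name. Open triangles are bounds, blue bars are list medians, the grey line is the median of all genes and dotted lines mark 2-fold. The canalicular list has a median of 1.30, which rests on bounds of genes dim in the C pool. The hepatocyte markers have a median of 2.91, and the brain barrier and kidney tubule transporters lie near -0.16 and -0.13.

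The lists by role share some genes. Abcc4 stands in the sinusoidal, brain barrier and kidney lists and Slc22a8 in the brain barrier and kidney lists, so these lists are not separate measurements. Of the genes at background in both pools, 10 were in the Slc22a family, 5 in Slco, 4 in Abca, 3 in Slc10a, 2 in Abcg and 1 in Abcb. Among them were Slco6c1 and Slco6d1, of a subfamily known from testis, and Abca12, the lipid transporter of skin.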

How the data were processed

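RNA of the PFC, pooled within the C group and within the CMS group, was hybridized to 1 one-color array each. The authors deposited Agilent Feature Extraction 10.10.1.1 spot intensities, on a linear scale after the software's background subtraction and spatial detrending, with an error estimate for each spot, and a table of the same intensities multiplied by 1 factor per array. The array holds 59305 spots of 55681 probes besides controls.

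Controls and spots marked as outliers (130 on the C array, 133 on the CMS array) were removed, spots of a probe were averaged, and each array was multiplied to reach a mean of 2500 as in the methods. A share of 0.5 of its spots made a probe well above background. Dim probes were bounded as described above, log2 ratios were taken, and the brightest probe stood for a gene. RefSeq accessions without version were matched to symbols in the RefSeq gene table of GRCm38.p6, which named 30740 spots. Array and table differ in build, so no gene coordinates are given, and promoter coordinates are those of the promoter table. A call was a ratio above 2 or below 0.5. Error estimates of log2 ratios combine the scanner's estimates of both spots, which had a median of 10.0% of the signal for transporter probes above background on both arrays. Log2 ratios of spots of 1 probe had an SD of 0.13 over 342 probes. No spot was saturated, and the number of arrays limits the precision.

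Genes named were transporter genes past 2-fold, members of the role lists, the 2 brightest members of each family, and pathway genes past 2-fold with Hnf4a. Others named were chosen after their values were seen. A few genes and a motif enter the counts and are not reported here. The members, role lists, pathway lists and marker lists were chosen with earlier results of these data known, so they are not independent of them. Calculations used Python 3.11.15, numpy 2.4.6, pandas 2.3.3, matplotlib 3.10.9, limma 3.58.1 and R 4.3.3, and the calling of genes was tested on simulated arrays. In these, changes were placed only in genes above background on both arrays, and dim and bright spots had the same noise. Calls that rest on a bound or on a dim spot were thus not covered. Alternatives were scaling to the 75th percentile, normexp correction (offset 50) of median spot and background intensities followed by quantile normalization, quantile normalization alone, the deposited table, other treatments of dim probes, no removal of outlier spots, averaging over a gene's probes and a 1.5-fold threshold.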

Additional observations from a re-analysis of the deposited data

How the results depend on the processing

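No array could be left out, since each group holds 1. No paired analysis was possible because each group holds 1 array. Under normexp correction with an offset of 50, 2 transporter genes (Abcb11 at a log2 ratio of 2.21 and Slco1b2 at 2.05) remained more than 2-fold higher, and the other 3, among them Slc22a7 (0.81) and Abcg5 (0.85), did not. The offset itself pulls ratios of dim probes towards 0. Without a filter on dim probes, 9 genes were higher, 1 was lower (Slc22a20, dim in both pools) and the median log2 ratio of Slco was -0.0054. At 1.5-fold, 8 genes were higher and 2 lower (Abca9 and Abcc12). Without bounds 7 genes were higher, adding Abcc2 and Slc10a2, and with probes above background on both arrays 4. The shares of all genes under these filters and at 1.5-fold are not given here. These counts thus have no background beside them. Of the counts and medians under alternatives, 98 stayed within their limit, 6 moved and none reversed. Of the ratios of named genes, 458 stayed within the SD between spots, 25 moved and none of those called reversed, 16 of them moving under normexp correction. With the mean of both probes Slc10a1 had a log2 ratio of 0.56, and the dim probe alone, an alternative chosen after seeing the data, gave 1.02. Scaling to the 75th percentile, quantile normalization, the deposited table, outlier spots kept and the mean of all probes changed no call among the 5 genes. Over all genes with a ratio, 366 were higher and 70 lower, and under normexp correction 212 and 21. Probes near background are the least certain, and all 5 genes past 2-fold had C signals below 100.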
